A study of Mus musculus with 24 samples.

Results

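Wildtype (WT) mouse liver was compared with 3 other WT tissues, namely dorsal brown adipose tissue (BAT), brain and inguinal adipose tissue (IAT). All animals were female, 12 weeks old and normally fed, and were perfused with PBS to clear the blood before the tissues were frozen. Each tissue gave 3 libraries, so the comparison used 12 of the 24 libraries of the series. The other 12 came from the same tissues of Prxl2a knockout (KO) mice and entered only where stated. The labels give 3 mice per genotype, no other allele and no treatment, and do not say which tissues came from the same mouse. RNA was taken from whole pieces of tissue, so each library mixes the cell types of its organ, and fewer cells of a type and less RNA per cell cannot be told apart in any of the values that follow.

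A gene was called liver-high when edgeR's quasi-likelihood test placed liver above BAT, above brain and above IAT, each at an adjusted p under 0.05, and all 3 liver libraries lay above all 9 others. Liver-low is the mirror image. The list members F3, Apod, Cyp1b1, Bcat1, Pck2, Ntrk2, Moxd1, Axin2, Cald1, Rpl3, Rpl9 and Rps21 are named because they were among the few called in their lists, a choice made after their values were seen. Levels compared between tissues are counts relative to library size (CPM) scaled by TMM, a method that sets aside the genes with the most extreme ratios when it equates libraries, and levels compared between genes are transcript abundances corrected for length (TPM).

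As background, the hepatocyte is the main cell of the liver. It secretes albumin, clotting factors, lipoproteins and most other plasma proteins, makes bile acids and urea, releases glucose and ketone bodies for other organs, and oxidises and conjugates drugs and waste. This programme is driven by a small set of transcription factors, among them HNF1, HNF4A, the C/EBP proteins and the FOXA proteins. Resident macrophages called Kupffer cells, sinusoidal endothelial cells, vitamin A-storing stellate cells and bile duct cells make up most of the rest of the organ.

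The liver libraries held 17034043 to 18199151 counts, against 12327459 to 12948149 in BAT, 16115569 to 17293215 in brain and 16860993 to 17323714 in IAT. The defining markers fitted the tissue labels. Alb, which encodes albumin, was at 197821, 173860 and 224536 CPM in the 3 liver libraries. Ucp1, the uncoupling protein of brown fat, averaged 0.0296 CPM in liver and 3316 CPM in BAT. Snap25, a synaptic protein, had 0 counts in liver and averaged 1954 CPM in brain. Fabp4, the fatty acid binding protein of adipocytes, averaged 8.58 CPM in liver, against 9445 CPM in BAT and 6219 CPM in IAT. Among the other tissues, 3 libraries stood apart by skeletal muscle transcripts: a 15-gene muscle list held 0.255% of TPM in BAT replicate 1, 0.173% in IAT replicate 1 and 0.634% in IAT replicate 2. The same list held 0.000129% to 0.000289% in liver and at most 0.02% in any other library. Without these 3 libraries 2723 genes were liver-high and 2105 liver-low.

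Of 15810 genes tested, 2742 were liver-high (17.3%) and 2497 were liver-low (15.8%). Among the liver-high genes 1569 stood at least 2-fold above the highest other tissue, 697 at least 8-fold and 394 at least 64-fold, and 74 had 0 counts in all 9 other libraries. The liver-low genes were less extreme: 1590 stood at least 2-fold below the lowest other tissue, 379 at least 8-fold and 48 at least 64-fold, while 200 had 0 counts in liver. Against the mean of the other tissues, 5426 genes were higher in liver (34.3%) and 6234 lower (39.4%). The nearest tissue to liver, the one with the smallest difference in the direction of the call, was IAT for 1103 liver-high genes, BAT for 1013 and brain for 626. For the liver-low genes it was BAT for 1065, IAT for 887 and brain for 545.

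How many genes fell on each side depended on how the libraries were equated. The TMM factors were 0.574 to 0.619 in liver, against 0.99 to 1.05 in BAT, 1.3 to 1.38 in brain and 1.16 to 1.28 in IAT. Under TMM the median gene differed by -0.18 on the log2 scale between liver and the mean of the other tissues, and 52.3% of the calls were liver-high. Scaled by library totals alone, the median gene lay at -1.18, and 1237 genes were liver-high (7.82%) and 6835 liver-low (43.2%), so that 15.3% of the calls were liver-high. Tests on log2(TPM + 1) gave a median of -1.16 and 13% liver-high. All 1237 genes that were liver-high under library totals were also liver-high under TMM, and all 2497 liver-low genes remained liver-low. The factors of liver were the lowest, so TMM raises liver against every other library. This nesting therefore largely follows from the scaling and is no separate agreement. Of the 2742 liver-high genes, 167 were called liver-low under library totals. A moderate excess over the other tissues therefore depends on the scaling, and it is marked below where a group rests on it.

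The liver transcript pool was concentrated in few genes. The single most abundant gene held 8.93%, 8.36% and 10.5% of TPM in the 3 liver libraries, against 3.31% to 3.79% in BAT, 0.495% to 0.58% in brain and 2.89% to 3.31% in IAT. The 10 most abundant genes held 24.3% in liver (SD 1.16, n = 3), 10.9% in BAT, 4.0% in brain and 13% in IAT. With 100 genes the shares were 51.7% in liver (SD 0.952), 39.9% in BAT, 18.5% in brain and 36.1% in IAT. A mean of 88 genes (SD 7.21) made up 50% of liver TPM, while 171 were needed in BAT, 825 in brain and 236 in IAT. Liver also had the fewest genes at 1 TPM or more, 10863 on average, against 11648 in BAT, 13947 in brain and 12896 in IAT. For each of these measures the 3 liver libraries lay beyond all 9 others. This gives p = 0.00909 in a two-sided exact permutation test, the smallest value that 3 against 9 libraries allow. The test takes the 9 as 1 group, though they are 3 libraries from each of 3 tissues that differ among themselves. Its p therefore does not measure the spread between tissues.

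**Figure D1:**
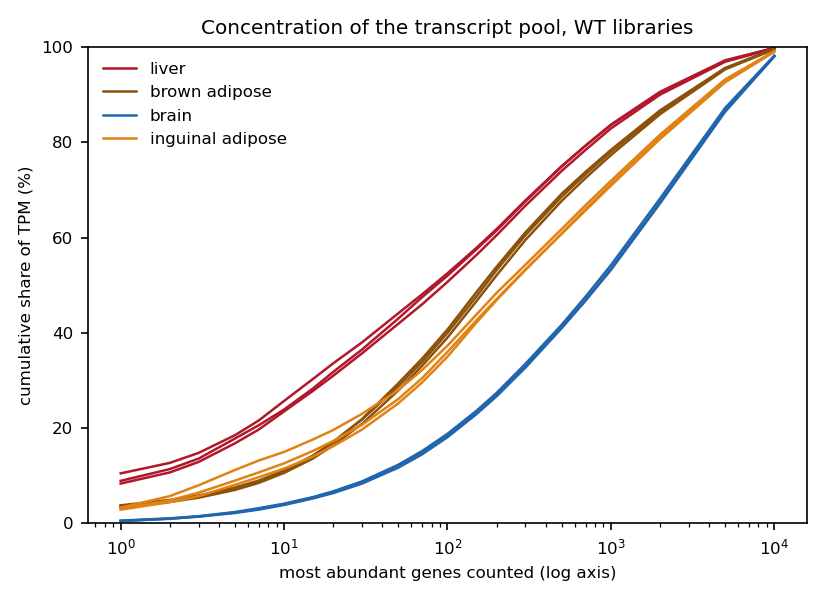
Cumulative share of TPM (percent, linear axis) against the number of most abundant genes counted (log axis) in the 12 WT libraries, 1 line per library, coloured by tissue. The 3 liver lines lie highest over the first 100 genes, where they reach 50.7% to 52.5%, and the 3 brain lines lie lowest at 18.1% to 18.8%.

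The 15 most abundant genes of liver were Alb, Apoa2, Apoc1, Apoe, Mup22, Ttr, Fabp1, Trf, Apoa1, Hamp, Ahsg, Serpina3k, Serpina1c, Cyp2e1 and Serpina1b. All but Fabp1, an intracellular fatty acid carrier, and the cytochrome Cyp2e1 encode secreted proteins. Alb led with 92566 TPM on average (SD 10924, n = 3), followed by Apoa2 at 22799 TPM and Apoc1 at 21683 TPM. Of the 15, 5 were above 2000 TPM in another tissue too. Mup22 averaged 17481 TPM in liver and 16358 TPM in IAT, Cyp2e1 8684 TPM in liver and 2289 TPM in IAT, and Trf 13423 TPM in liver and 2421 TPM in IAT. Apoe averaged 21589 TPM in liver, 2188 in BAT, 2546 in brain and 4677 in IAT, and Apoc1 21683 TPM in liver and 2721 in BAT. The other 10 were at 838 TPM or less in every other tissue.

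**Figure D2:**
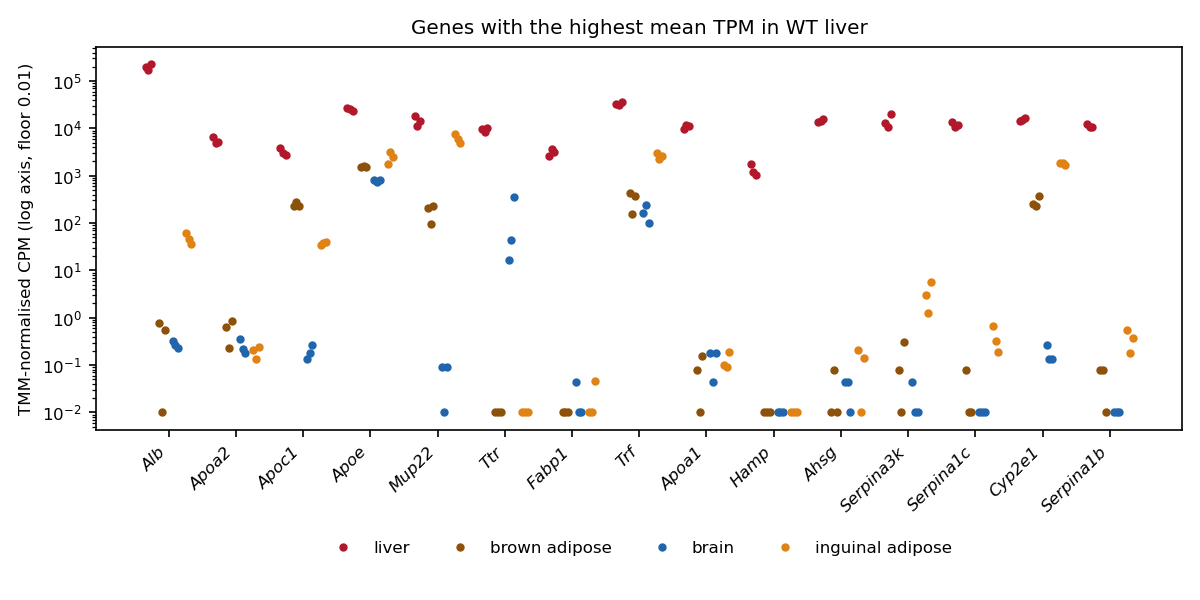
TMM-normalised CPM (log axis, with values below 0.01, zeros included, drawn at 0.01) of the 15 genes with the highest mean TPM in WT liver, 1 point per library, with liver leftmost in each gene. The liver points lie above all other points for every gene, with the smallest gap at Mup22, which averaged 14459 CPM in liver and 6054 CPM in IAT.

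All 30 listed plasma carriers and protease inhibitors were liver-high under TMM and under library totals, with a median log2 ratio to the highest other tissue of 12.80, where the median over all genes tested was -1.01. They held 20.1% of liver TPM (SD 1.55), against 0.0463% in BAT, 0.126% in brain and 0.397% in IAT. Alb (GRCm38.p6, gene 11657, chromosome 5, 90460870 to 90476602) was at 197821, 173860 and 224536 CPM in liver, against 0.78, 0 and 0.54 CPM in BAT, 0.315, 0.266 and 0.226 CPM in brain and 62.1, 45 and 36.2 CPM in IAT. No library of another tissue came near liver, and IAT, the highest of them, lay 12.03 (SE 0.61, edgeR adjusted p = 1.63e-08) below it on the log2 scale. Trf, the iron carrier transferrin, was less exclusive, at 32270, 31576 and 36027 CPM in liver and 3090, 2281 and 2659 CPM in IAT, a log2 difference of 3.64 (SE 0.41, edgeR adjusted p = 1.12e-05).

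Ttr, the carrier of thyroxine and retinol-binding protein that the choroid plexus of the brain also makes, was at 9501, 8265 and 10015 CPM in liver. It had 0 counts in BAT and in IAT, and 16.4, 43.1 and 353 CPM in brain. The brain libraries differed widely among themselves, replicate 3 being the highest, and the log2 difference to liver was 6.08 (SE 1.2, edgeR adjusted p = 0.00213), or 8.32 without brain replicate 3. Rbp4, which carries retinol in blood, averaged 5184 CPM in liver, 78.9 in BAT, 7.36 in brain and 327 in IAT, and Cp, the copper protein ceruloplasmin, 1658 CPM in liver, 38.6 in BAT, 11.4 in brain and 189 in IAT. Ahsg, fetuin A, averaged 14608 CPM in liver and at most 0.115 CPM in another tissue. The near-identical Serpina1 genes encode forms of alpha-1-antitrypsin, and how reads were divided between them is uncertain. Serpina1b and Serpina1c averaged 11258 and 12011 CPM in liver and at most 0.389 CPM elsewhere.

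Of 24 coagulation and fibrinolysis genes, 22 were liver-high under both scalings, 1 was liver-low and 1 was neither, with a median log2 ratio to the highest other tissue of 10.89. The liver-low gene was F3, the tissue factor that starts clotting outside the vessel, at 5.99 CPM in liver and at least 35.8 CPM in each other tissue. The fibrinogen chains Fga, Fgb and Fgg averaged 6173, 7300 and 4908 CPM in liver. In IAT, the nearest tissue, they averaged 0.0341, 2.84 and 1.7 CPM. F2 (prothrombin), Plg (plasminogen), Serpinc1 (antithrombin) and Kng1 (kininogen) averaged 2882, 4461, 4073 and 5340 CPM in liver and under 1 CPM in every other tissue. The exception without a call was Pros1, the anticoagulant protein S, at 133, 129 and 127 CPM in liver and 81.7, 126 and 137 CPM in IAT, where the groups overlapped (log2 difference 0.18, SE 0.17, edgeR adjusted p = 0.343).

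Of 28 complement genes, 19 were liver-high under TMM and 14 under library totals, none was liver-low, and the median log2 ratio to the highest other tissue was 2.08. As a share of TPM the list was at 1.03% in liver (SD 0.0602), below the 2.35% of IAT and above the 0.649% of BAT and the 0.0408% of brain. The place of IAT rests on Cfd, the adipocyte product adipsin: without this gene, left out after its values were seen, the share was 1.03% in liver, 0.0776% in BAT, 0.0408% in brain and 0.593% in IAT. The membrane attack component C8a averaged 379 CPM in liver, and the lectin Mbl2 averaged 1223 CPM and had 0 counts in all 9 other libraries, so that it was at least 15768-fold higher in liver, taking 3 counts over the 3 libraries of a tissue as the floor. C3, the central component of the cascade, was at 13432, 14041 and 13770 CPM in liver, 1034, 713 and 1000 CPM in BAT and 2197, 2355 and 2455 CPM in IAT, and lay 2.56 (SE 0.19, edgeR adjusted p = 2.95e-07) above IAT. C4b (2304 CPM in liver, 41.2 in BAT, 15.9 in brain and 950 in IAT) and the C1 inhibitor Serping1 (1331 CPM in liver, 61.6 in BAT, 4.06 in brain and 440 in IAT) were liver-high under TMM but not under library totals. The C4b call was lost without IAT replicate 1 or 2 or without any 1 liver library, at log2 differences of 1.07 to 1.38. Cfd itself was at 0.0332 CPM in liver, 2509 CPM in BAT and 5798 CPM in IAT. C1qa, made by macrophages, averaged 66.5 CPM in liver and 378 CPM in IAT.

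Among 20 acute phase genes, which the liver induces in inflammation, 16 were liver-high under TMM and 12 under library totals. Hp, haptoglobin, was at 4348, 4128 and 4757 CPM in liver, 1153, 632 and 1046 CPM in BAT and 787, 392 and 961 CPM in IAT, so its liver excess over BAT was 2.23 (SE 0.35, edgeR adjusted p = 0.000159) on the log2 scale. Orm1, an orosomucoid, averaged 1155 CPM in liver, 71.8 in BAT, 0 in brain and 192 in IAT. Crp and Apcs, the short pentraxins, averaged 760 and 162 CPM in liver, and Apcs had 0 counts elsewhere. Serpina3n, at 710 CPM in liver, 7.82 in BAT, 10.7 in brain and 185 in IAT, was liver-high only under TMM. Lcn2, lipocalin 2, averaged 24.3 CPM in liver and 23.6 CPM in IAT, and was not called (edgeR adjusted p = 0.927 against IAT).

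Apolipoproteins took a large part of the liver pool. The lipoprotein list held 10% of liver TPM (SD 0.297), against 0.762% in BAT, 0.292% in brain and 0.94% in IAT. Of its 27 genes 22 were liver-high, and under library totals 21. The 1 liver-low gene was Apod, a lipocalin that carries small lipids, at 0 CPM in liver and at least 18.7 CPM in each other tissue. Apoa1, the main protein of HDL, was at 9623, 11644 and 11242 CPM in liver and at 0.0774 CPM in BAT, 0.135 CPM in brain and 0.127 CPM in IAT on average. Apoa2, Apoc3 and Apoh likewise averaged 5603, 2108 and 4160 CPM in liver and under 3 CPM in every other tissue. Apoe, which macrophages and astrocytes make too, was high everywhere, at 26882, 26206 and 22753 CPM in liver, 1518, 1602 and 1497 CPM in BAT, 812, 741 and 816 CPM in brain and 1752, 3173 and 2432 CPM in IAT. The liver libraries were all above the rest, by 3.37 (SE 0.24, edgeR adjusted p = 2.25e-07) over IAT. Its neighbour Apoc1 was also found in both fats, with 3886, 3083 and 2802 CPM in liver, 229, 284 and 225 CPM in BAT and 35.1, 37.3 and 40 CPM in IAT. Lpl, the lipase that unloads lipoproteins in the tissues that take up fat, was at 27.1 CPM in liver, 6230 CPM in BAT, 17.5 CPM in brain and 6771 CPM in IAT. Abca1, the exporter that starts HDL, averaged 263 CPM in liver, 199 in BAT, 33.9 in brain and 224 in IAT, and its excess over IAT did not pass (log2 difference 0.24, SE 0.14, edgeR adjusted p = 0.144), though it did without brain replicate 1 or 3 (both 0.31).

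Of 28 hormones, binding proteins and receptors linked to the liver, 27 were liver-high under TMM and 22 under library totals. Hamp, which encodes the iron hormone hepcidin, was at 1807, 1177 and 1059 CPM in liver and had 0 counts in all 9 others, at least 17373-fold higher in liver. Its near-identical copy Hamp2 averaged 936 CPM, and the division of reads between the pair is uncertain. Agt, the precursor of angiotensin, averaged 1061 CPM in liver, 2.77 in BAT, 8.68 in brain and 23.2 in IAT. Selenop, the selenium carrier, averaged 11320 CPM in liver, 908 in BAT, 199 in brain and 1848 in IAT. Igfbp1 and Igfbp2, which bind insulin-like growth factors, averaged 626 and 576 CPM in liver, and Igfbp2 reached 18 CPM in brain. Ghr, the growth hormone receptor, averaged 937 CPM in liver, 270 in BAT, 9.52 in brain and 654 in IAT, and was liver-high under TMM only, by 0.53 (SE 0.16, edgeR adjusted p = 0.011) over IAT. Gdf2, the ligand BMP9, averaged 40.7 CPM in liver and had at most 1 count in the libraries of any other tissue.

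Bile acid synthesis and transport showed no exception under TMM: all 23 genes were liver-high under TMM and 20 under library totals, with a median log2 ratio to the highest other tissue of 8.54. Cyp7a1, the rate-limiting enzyme of the classic pathway, was at 715, 741 and 816 CPM in liver with 0 counts in the other 9 libraries, at least 9763-fold higher in liver. Slc27a5 and Baat, which activate and conjugate bile acids, averaged 1986 and 473 CPM in liver. Slc10a1 and Slco1b2, uptake carriers of the hepatocyte surface, averaged 1504 and 1967 CPM. All 4 were under 1 CPM elsewhere. Nr1h4, the bile acid receptor FXR, averaged 262 CPM in liver, 1.5 in BAT, 0.149 in brain and 1.06 in IAT. Cyp27a1, the mitochondrial sterol hydroxylase, averaged 1009 CPM in liver, 83.4 in BAT, 3.34 in brain and 41.8 in IAT.

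Of 44 cytochrome P450 genes of drug, sterol and fatty acid oxidation, 40 were liver-high under both scalings. The 1 liver-low gene was Cyp1b1, a hydroxylase of oestrogens found mainly outside the liver, at 1.75 CPM in liver and at least 3.43 CPM in each other tissue. The list held 3.07% of liver TPM (SD 0.0997), against 0.281% or less in the other tissues. Many of these genes have close copies, so single values depend on how reads were divided. Cyp1a2, Cyp2c50 and Cyp3a25 averaged 1216, 1697 and 1183 CPM in liver with 0 counts elsewhere, and were at least 15676-fold, 21883-fold and 15249-fold higher in liver. Cyp3a11, the main inducible drug oxidase, averaged 6210 CPM in liver. Cyp2e1, which oxidises ethanol, was at 14226, 15257 and 16705 CPM in liver and at 1852, 1876 and 1710 CPM in IAT, with 279 CPM in BAT and 0.18 CPM in brain. Cyp2b10, the target of the receptor CAR, was not called, at 54.1, 42.8 and 84.5 CPM in liver and 125, 54.8 and 122 CPM in BAT. Cyp46a1, the cholesterol hydroxylase of neurons, averaged 2.93 CPM in liver and 134 CPM in brain.

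The conjugating and hydrolysing enzymes counted 43 liver-high genes of 49 under TMM and 40 under library totals, with none liver-low. Ugt2b5, a glucuronosyltransferase, averaged 1387 CPM in liver with 0 counts elsewhere. The carboxylesterase Ces1c averaged 7786 CPM in liver, with 2 counts in IAT and 0 in BAT and brain. Of the glutathione transferases, Gsta3 averaged 3365 CPM in liver, 13.3 in BAT, 0.733 in brain and 128 in IAT, and Gstm1 2070 CPM in liver, 226 in BAT, 111 in brain and 229 in IAT. Ces1d, a lipase of fat as well as liver, averaged 3111 CPM in liver, 2196 in BAT, 0.105 in brain and 1020 in IAT, and was not called against BAT (log2 difference 0.51, SE 0.21, edgeR adjusted p = 0.0567). It was called without IAT replicate 1 or 3 or any 1 brain library, at 0.51 to 0.58. Fmo1, a flavin monooxygenase, averaged 759 CPM in liver, 1043 in BAT, 7.3 in brain and 265 in IAT. The retinoid enzyme Rdh7 averaged 1778 CPM in liver and had 0 counts elsewhere, and the urate oxidase Uox averaged 3876 CPM in liver and at most 0.224 CPM in another tissue. In their list of peroxisomal, urate, alcohol and retinol enzymes, 26 of 30 were liver-high under TMM and 23 under library totals.

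In the urea cycle 9 of 11 genes were liver-high under both scalings. Cps1, which fixes ammonia in the first step, was at 10474, 6782 and 9147 CPM in liver, 0.405, 0.488 and 0.588 CPM in brain and 0 counts in both fats. Otc, Ass1, Asl and Arg1, the next enzymes in order, averaged 883, 7155, 1745 and 3122 CPM in liver. The highest means outside liver were 0.0299 CPM for Otc in brain, 25 CPM for Ass1 in brain, 24.9 CPM for Asl in BAT and 3.38 CPM for Arg1 in IAT. Glul, glutamine synthetase, which in liver is confined to a rim of hepatocytes around the central vein, averaged 1985 CPM in liver, 5296 in BAT, 1407 in brain and 2790 in IAT. It lay 1.41 below BAT on the log2 scale (edgeR adjusted p = 3.7e-05) and 0.50 above brain (edgeR adjusted p = 0.0229), and under library totals it was liver-low.

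Of 43 amino acid enzymes, 37 were liver-high under TMM, 32 under library totals and 1 was liver-low under both. Tat and Hpd of tyrosine breakdown averaged 7334 and 4505 CPM in liver and under 3 CPM elsewhere. Mat1a, which makes the methyl donor S-adenosylmethionine, averaged 9429 CPM in liver and under 0.1 CPM elsewhere. The branched-chain enzymes, known to be weak in liver at the first step, differed. The liver-low gene was Bcat1, the cytosolic aminotransferase, at 0 CPM in liver and at least 1.34 CPM in each other tissue. Bcat2, the mitochondrial aminotransferase, averaged 46 CPM in liver, 200 in BAT, 7.53 in brain and 165 in IAT. It lay -2.12 (SE 0.11, edgeR adjusted p = 1.6e-08) from BAT and -1.84 (SE 0.11, edgeR adjusted p = 4.71e-08) from IAT on the log2 scale, both below. Bckdha of the next step averaged 331 CPM in liver, 634 in BAT, 23.6 in brain and 174 in IAT.

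Among 27 genes of glucose and glycogen metabolism, 17 were liver-high under TMM and 15 under library totals. The 1 liver-low gene was Pck2, the mitochondrial form of PEP carboxykinase, at 10.3 CPM in liver and at least 17.1 CPM in each other tissue. G6pc, which frees glucose from its phosphate, was at 1364, 607 and 1680 CPM in liver and under 0.1 CPM on average in each other tissue. Pck1, the first committed enzyme of glucose synthesis, which fat uses to make glycerol, averaged 6468 CPM in liver, 4133 in BAT, 0.0298 in brain and 710 in IAT. It passed against BAT under TMM (log2 difference 0.65, SE 0.20, edgeR adjusted p = 0.0143) and not under library totals. The call was lost without BAT replicate 1, liver replicate 1 or liver replicate 3, at 0.56 to 0.59. Fbp1, a bisphosphatase of glucose synthesis, averaged 1881 CPM in liver and at most 0.595 CPM (BAT) elsewhere. Pcx, pyruvate carboxylase, was not liver-high and averaged 711 CPM in liver, 1146 in BAT, 55 in brain and 2175 in IAT.

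Ketone bodies are made in liver and burned elsewhere. Oxct1, which activates ketone bodies for oxidation, was at 7.5, 10.1 and 7.87 CPM in liver, against 410, 385 and 379 CPM in BAT, 240, 259 and 273 CPM in brain and 187, 180 and 191 CPM in IAT, a log2 difference of -4.44 (SE 0.12, edgeR adjusted p = 2.06e-10) to IAT. All liver libraries were below all others for Oxct1 under both scalings. In the list of 27 fatty acid oxidation and ketone genes 17 were liver-high under TMM and 14 under library totals, and Oxct1 was the 1 liver-low gene. The liver isoform of the mitochondrial entry step, Cpt1a, averaged 655 CPM in liver, 17.6 in BAT, 23 in brain and 51.3 in IAT. Of the mitochondrial beta-oxidation enzymes, Acadm averaged 499 CPM in liver, 3081 in BAT, 25.8 in brain and 287 in IAT, and Hadhb 373 CPM in liver, 5455 in BAT, 62.3 in brain and 421 in IAT.

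Of 32 genes of fat and sterol synthesis 14 were liver-high under TMM and 11 under library totals. Below BAT lay 13, near the 36.0% of all genes tested that did, and 14 lay above it, against 29.7%. The median log2 ratio of the list to the highest other tissue was 0.00. Fasn, fatty acid synthase, averaged 1870 CPM in liver, 18310 in BAT, 210 in brain and 16770 in IAT, and Scd1, the main stearoyl desaturase, 17156 CPM in liver, 34659 in BAT, 162 in brain and 43752 in IAT. Both were above brain and below BAT. Genes of chain elongation and desaturation of polyunsaturated fats were different: Elovl2 averaged 971 CPM in liver, 0.0258 in BAT, 14.4 in brain and 0 in IAT, and Fads1 1350 CPM in liver, 29.9 in BAT, 188 in brain and 145 in IAT. Pemt, which makes phosphatidylcholine by methylation, averaged 506 CPM in liver, 6.08 in BAT, 0.838 in brain and 5.92 in IAT. Scd2, the desaturase form of brain, was liver-low at 23 CPM in liver, 226 in BAT, 1243 in brain and 545 in IAT.

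Liver forms of enzymes that exist in several versions were compared within each library as the log2 ratio of TPM of the liver form to the other form, with 0.1 TPM added to each. Such a ratio does not depend on how libraries are scaled while both forms are well above 0.1 TPM, but where a form is near 0 the 0.1 TPM added sets its size. For 22 of 25 pairs all 3 liver libraries lay above all 9 others, as they did in CPM for 18.8% of all genes tested. The pairs were picked as known liver forms, so the count is a description and no test was made of it. For pyruvate kinase, Pklr over Pkm, the ratio was 4.44, 4.12 and 3.92 in liver and -14.12 to -11.73 in the other libraries. Pkm itself averaged 27 CPM in liver, 2289 in BAT, 910 in brain and 834 in IAT. For the glucose carriers, Slc2a2 over Slc2a1, it was 5.12, 5.11 and 4.79 in liver and -10.34 to -5.92 elsewhere. Mat1a over Mat2a stood at 5.97, 5.67 and 5.69 in liver and -10.84 to -9.48 elsewhere.

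The same held for Dio1 over Dio2, which activate thyroid hormone in different organs, at 10.98, 11.09 and 10.93 in liver and -8.80 to -1.54 elsewhere. Ldha over Ldhb, where both forms are widespread, stood at 6.74, 6.96 and 7.33 in liver, and IAT came nearest with 3.90, 3.81 and 4.71. The 3 pairs that overlapped were Acacb over Acaca, Pgam1 over Pgam2 and Eno1 over Eno2. The other member of the last pairs marks muscle and neurons. Pgam1 over Pgam2 was 8.80, 8.15 and 9.26 in liver and, in BAT, 4.37, 9.74 and 9.88, where the low value belongs to the library rich in muscle transcripts.

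**Figure D3:**
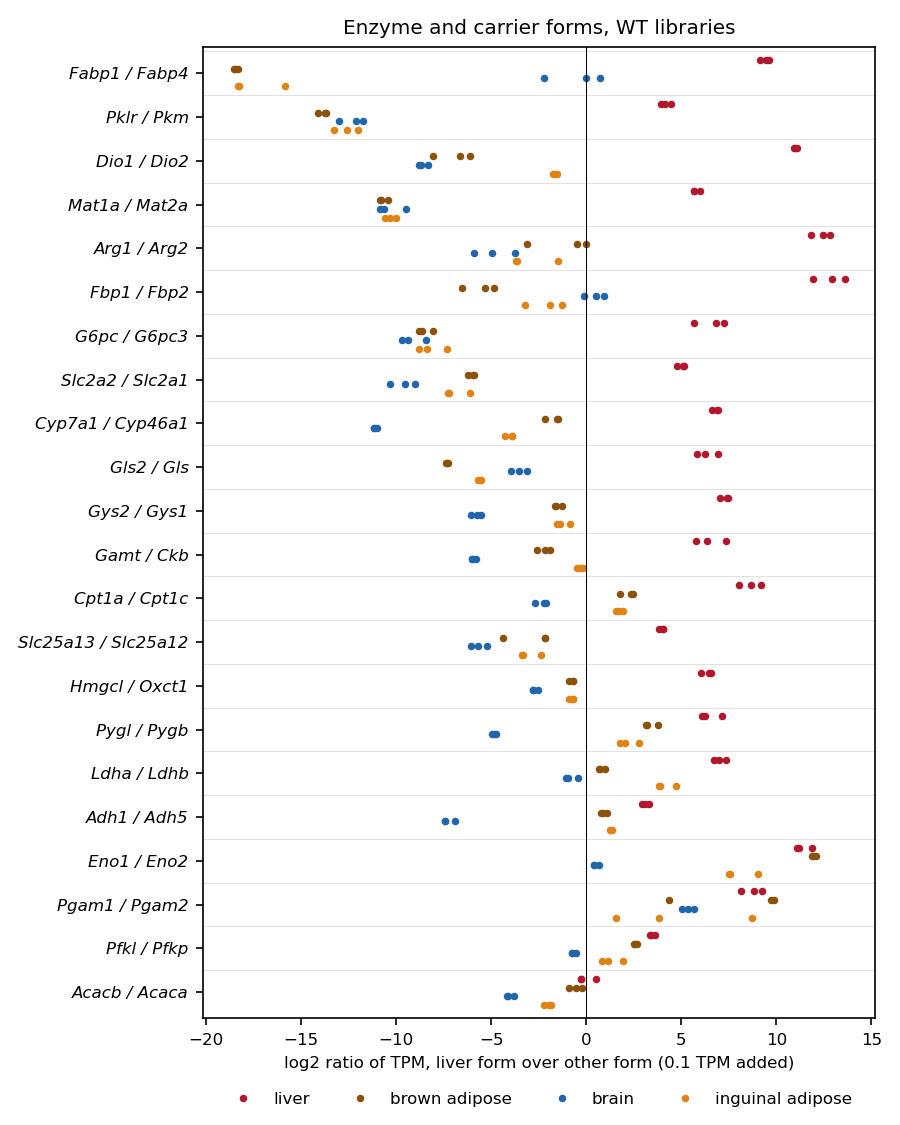
Within-library log2 ratio of TPM (0.1 TPM added) of the liver form to the other form for 22 of the 25 pairs, 1 point per library, with liver drawn on the uppermost line of each pair. Liver points lie right of all other points in 19 of the pairs drawn and overlap them for Acacb/Acaca, Pgam1/Pgam2 and Eno1/Eno2.

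Among 30 transcription factors linked to the liver, 18 were liver-high under TMM and 15 under library totals, and 1 was liver-low. Hnf4a was at 1420, 1604 and 1529 CPM in liver, with 1 count in all 9 other libraries together. Nr1i2 and Nr1i3, the drug sensors PXR and CAR, averaged 159 and 307 CPM in liver. Elsewhere Nr1i2 had 0 counts and Nr1i3 at most 0.241 CPM. Creb3l3 averaged 343 CPM in liver, 0 in BAT, 0.331 in brain and 0.874 in IAT, and Rxra, the partner of many of these receptors, 623 CPM in liver, 89.5 in BAT, 25.5 in brain and 141 in IAT. Cebpa, which adipocytes need as well, was not called, at 385, 524 and 320 CPM in liver, 555, 477 and 510 CPM in BAT and 566, 422 and 384 CPM in IAT. Bcl6, a repressor, was the liver-low factor, at 14.6 CPM in liver, 131 in BAT, 30.6 in brain and 35.6 in IAT.

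Promoters of the liver-high genes were read from RefSeq on GRCm38.p6 as 300-base windows, 250 before and 50 after the gene start, and searched on both strands for fixed letters. No motif contains another, and each was counted on its own. Such matches are descriptions and not shown binding sites. Windows were found for 2159 liver-high and 1903 liver-low genes. A gene can have more than 1 window, and the shares are of windows. The 690 windows of liver-high genes at least 8-fold above the nearest tissue came from 553 genes. The HNF1 motif, GTTAAT and ATT with 1 free base between them, occurred in 31 of 690 windows of liver-high genes at least 8-fold above the nearest tissue (4.49%), in 0 of 2564 windows of liver-low genes, in 0.301% of the 15963 windows of all genes tested and in 0.399% of all 32851 windows of the reference. The HNF4A motif CAAAGTCCA occurred in 3.33% of the first set, 0.429% of liver-low windows, 0.501% of those of all genes tested and 0.475% of all windows. The C/EBP motif TTGCNNAA was in 18%, 7.72%, 9.21% and 10.8% of these sets, the FOXA motif TGTTTAC in 8.12%, 2.07%, 2.78% and 3.65%, and TATAAA in 20.3%, 7.14%, 8.19% and 13.6%. The GC-rich SP1 motif GGGCGG was less frequent in the first set, with 27.4%, 61.1%, 57.5% and 35.7%. The genes tested are the set that could be called, and the liver-low shares lay nearer to theirs than to those of all windows for every motif but HNF4A. The 8-fold set was poor in CpG: its median observed-to-expected CpG ratio was 0.26, against 0.71 in liver-low windows, 0.70 in those of all genes tested and 0.38 in all windows. Base composition therefore moved with the motif shares, and its part in them was not tested. Among all 2733 liver-high windows the HNF1 share was 1.32% and the median CpG ratio 0.67.

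The 150 bases before the start of the most abundant 8-fold liver-high genes that hold 1 of these motifs show its place. Capitals mark the HNF1 motif, on either strand, in the first 5 and the HNF4A motif in the last 3. Gc, the vitamin D-binding protein, averaged 6400 TPM in liver, Cfhr2, related to complement factor H, 773 TPM, Pcbd1, a cofactor of HNF1, 565 TPM, C4bp 541 TPM and the bilirubin transferase Ugt1a1 464 TPM. Cyp3a11, Cyp3a41a and Cyp2c70 averaged 2900, 902 and 808 TPM. Cyp3a41a was at 1952, 333 and 421 TPM in the liver libraries, and without replicate 1 its mean was 377 TPM, below that of Cyp2c70. For C4bp the last 39 bases shown lie inside the gene's span in RefSeq, since the start given for its window is not the outermost. In Pcbd1 and Gc the HNF1 motif begins 24 and 52 bases before the start.
Gc, chr5:89457899-89458048, - strand: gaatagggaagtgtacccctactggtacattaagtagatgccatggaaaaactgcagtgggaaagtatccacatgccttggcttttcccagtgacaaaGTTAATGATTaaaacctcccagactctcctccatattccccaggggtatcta
Cfhr2, chr1:139858700-139858849, - strand: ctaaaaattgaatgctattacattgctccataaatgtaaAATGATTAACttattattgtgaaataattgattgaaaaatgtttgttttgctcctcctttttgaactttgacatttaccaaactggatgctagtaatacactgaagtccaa
Pcbd1, chr10:61089181-61089330, + strand: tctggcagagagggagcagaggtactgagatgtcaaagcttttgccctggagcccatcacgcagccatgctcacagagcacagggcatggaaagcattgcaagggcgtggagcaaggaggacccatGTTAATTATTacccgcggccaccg
C4bp, chr1:130661619-130661768, - strand: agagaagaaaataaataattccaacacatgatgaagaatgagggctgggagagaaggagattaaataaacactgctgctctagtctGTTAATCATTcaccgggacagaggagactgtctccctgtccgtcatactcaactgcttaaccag
Ugt1a1, chr1:88211809-88211958, + strand: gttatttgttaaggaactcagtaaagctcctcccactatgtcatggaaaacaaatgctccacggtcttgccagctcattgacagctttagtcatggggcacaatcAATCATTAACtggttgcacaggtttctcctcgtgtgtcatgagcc
Cyp3a11, chr5:145879855-145880004, - strand: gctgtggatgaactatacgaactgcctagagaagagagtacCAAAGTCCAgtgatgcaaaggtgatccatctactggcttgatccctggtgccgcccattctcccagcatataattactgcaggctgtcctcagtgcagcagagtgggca
Cyp3a41a, chr5:145720137-145720286, - strand: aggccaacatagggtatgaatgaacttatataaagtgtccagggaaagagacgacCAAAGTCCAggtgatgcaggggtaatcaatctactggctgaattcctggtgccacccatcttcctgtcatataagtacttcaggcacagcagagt
Cyp2c70, chr19:40187287-40187436, - strand: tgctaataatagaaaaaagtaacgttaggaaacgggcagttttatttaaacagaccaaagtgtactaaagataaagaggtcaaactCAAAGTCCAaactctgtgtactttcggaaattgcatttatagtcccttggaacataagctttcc

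Major urinary proteins, pheromone carriers made in liver and excreted, came from a cluster of near-identical genes, so their single values are uncertain. Under TMM 15 of 18 were liver-high, and under library totals 9. As a family they held 2.83% of TPM in liver (SD 0.461), 0.0456% in BAT, 0.000234% in brain and 2.14% in IAT. Mup22 was at 18082, 11110 and 14183 CPM in liver and 7453, 5881 and 4828 CPM in IAT, and Mup10 at 2485, 1847 and 1622 CPM in liver and 1088, 875 and 733 CPM in IAT. Both were liver-high under TMM only. Mup3 and Mup20, by contrast, averaged 2971 and 215 CPM in liver and 6.61 and 0.289 CPM in IAT, and were liver-high under both scalings. Mup11 and Mup7 lay below IAT, at 19.5 and 3.56 CPM in liver and 62.8 and 33.4 CPM in IAT, and the log2 difference for Mup11 was -1.68 (SE 0.17, edgeR adjusted p = 1.51e-05).

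The animals were all female, so the genes known to differ between the sexes in mouse liver could be read only for their level. Of 27 genes higher in female liver 21 were liver-high under TMM and 20 under library totals. Of 19 higher in male liver 12 and 10 were. Over all genes tested the shares were 17.3% and 7.82%. Liver-low under TMM were 3.7% of the female list and 15.8% of the male list, against 15.8% of all genes tested. The liver-low genes were Ntrk2 of the female list, at 17.7 CPM in liver and at least 202 CPM in each other tissue, and Moxd1, Cspg5 and Bcl6 of the male list, at 0, 0.0996 and 14.6 CPM in liver and at least 0.776, 1.5 and 30.6 CPM in each other tissue. Cyp2b9, Cyp2a4 and Sult2a1 of the female list averaged 739, 3107 and 742 CPM in liver. Cux2, a female-specific factor in liver that neurons also express, was at 101, 47.9 and 43.6 CPM in liver and 50.3, 64.8 and 52 CPM in brain. Of the male list, Elovl3 averaged 3.16 CPM in liver and 9.14 CPM in BAT.

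Genes known to be zoned along the liver lobule were mostly liver-high on both sides: 13 of 17 genes of the central zone and 17 of 20 of the portal zone. Axin2, a target of WNT signalling, was the 1 liver-low gene of the central zone, at 7.57 CPM in liver and at least 10.5 CPM in each other tissue. That call was lost without any 1 brain or IAT library and without liver replicate 2 or 3, at log2 differences of -0.46 to -0.30. Central genes included Rgn at 2659 CPM and Cyp2c37 at 1098 CPM on average in liver, and portal genes Gls2 at 665 CPM and Cyp2f2 at 1348 CPM. Cyp2f2 was also found in IAT, at 114 CPM. Slc1a2, a glutamate carrier of central hepatocytes and astrocytes, was at 459, 317 and 363 CPM in liver and 2253, 2350 and 2086 CPM in brain, with under 1 CPM in the fats. Lgr5, a receptor for R-spondins, averaged 6.53 CPM in liver and 5.77 CPM in brain. It was not called, but was liver-high without brain replicate 1 (log2 difference 1.09).

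Markers of the other liver cells were called in part only. Of 14 Kupffer cell markers 6 were liver-high under both scalings and none was liver-low. Clec4f was at 141, 201 and 178 CPM in liver, with 1 count in all other libraries, and Vsig4, Marco and Cd5l averaged 55.4, 16.3 and 152 CPM in liver and 0.849, 0.355 and 9.71 CPM in IAT. General macrophage genes were higher in IAT: Csf1r averaged 85.2 CPM in liver and 278 CPM in IAT, and Cd68 14 and 82.2 CPM. Of 15 endothelial markers 8 were liver-high, among them Stab2, Clec4g and Dnase1l3 at 62.6, 58.1 and 65.1 CPM in liver and under 1 CPM elsewhere. Lyve1 was at 9.57, 13.9 and 17.3 CPM in liver and 58.3, 174 and 424 CPM in IAT. Pecam1, common to endothelium, averaged 23.2 CPM in liver, 128 in BAT, 10.8 in brain and 68.8 in IAT.

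Of 15 stellate cell markers 7 were liver-high under TMM, 6 under library totals, and 1, the filament gene Nes, was liver-low at 3.74 CPM in liver and at least 6.26 CPM in each other tissue. Colec11, Hand2 and Lrat, which stores retinol as esters, averaged 66, 16.7 and 26.2 CPM in liver and under 1 CPM elsewhere. Dcn averaged 356 CPM in liver and 1688 CPM in IAT. Of the 15, 9 lay above and 5 below BAT, where 29.7% and 36.0% of all genes did. Above IAT lay 8 and below it 6, where 32.0% and 37.7% did. Above brain lay 11 and below it 1, where 39.5% and 42.7% did. The stellate list held 0.0469% of TPM in liver, 0.0603% in BAT, 0.0194% in brain and 0.267% in IAT. The bile duct list held 0.0136% of TPM in liver, 0.000801% in BAT, 0.00537% in brain and 0.0467% in IAT. Of 11 tested, 8 lay above BAT and 8 above brain, where 29.7% and 39.5% of all genes did. Above IAT lay 3 and below it 5, where 32.0% and 37.7% of all genes did. Liver-high were 3, among them Spp1 and Onecut2, where 17.3% of all genes were. Krt19 averaged 3 CPM in liver and 151 CPM in IAT, and Krt7 2.19 CPM in liver and 46.4 CPM in IAT. Spp1, which bile ducts share with other cells, averaged 146 CPM in liver, 0.363 in BAT, 8.16 in brain and 6.26 in IAT, and the factor Onecut2, which hepatocytes also express, 147 CPM in liver. Of 10 lymphocyte genes 2 were liver-high under TMM, near the 17.3% of all genes tested. Under library totals none was, where 7.82% of all genes were. The B cell gene Cd79a, 1 of the 2 lymphocyte genes called, was at 1.28, 2.49 and 1.1 CPM in liver. Its call was lost without liver replicate 2 (log2 difference 1.0), BAT replicate 1 (1.14) or BAT replicate 2 (1.58). The red cell list held 0.0556% of TPM in liver (SD 0.0492), 0.275% in BAT, 0.043% in brain and 0.18% in IAT. Of the pancreas list 1 gene, Cela1, passed the filter, and it was not called.

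**Figure D4:**
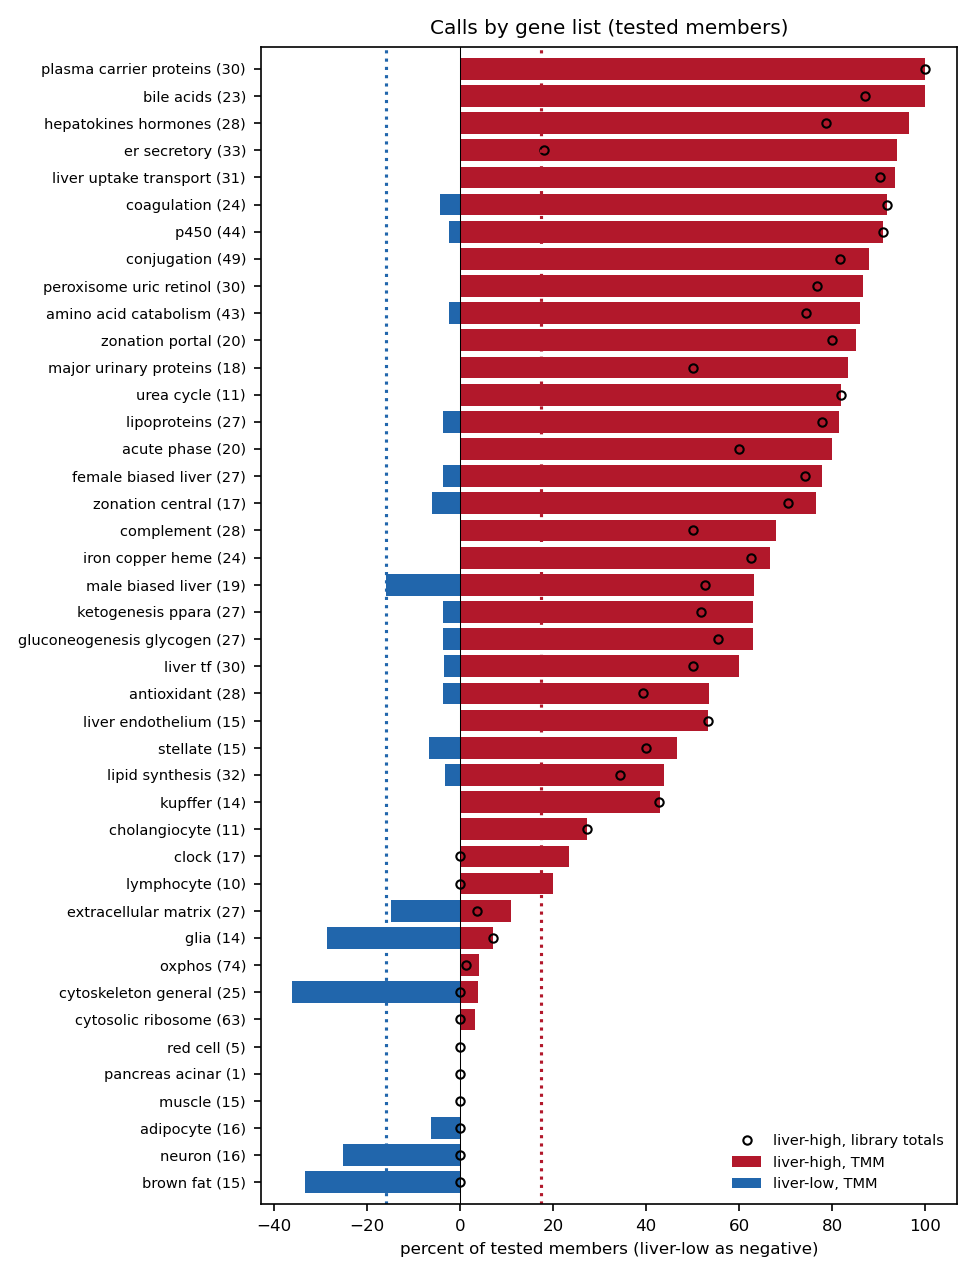
Percent of tested members called liver-high (right of 0) and liver-low (left of 0, plotted as negative percent) under TMM scaling, for 42 gene lists sorted by their share of liver-high genes, with open circles for the liver-high share under library totals. Dotted lines mark the shares over all genes tested, 17.3% and 15.8%. Plasma carriers and bile acid genes are at 100%, and the ER list falls farthest, with 31 of 33 genes under TMM and 6 under library totals.

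The liver-low genes with the largest gap, among those at 20 CPM or more in each other tissue, were genes that both fats and brain express and liver barely does. Ppp1r1a, an inhibitor of protein phosphatase 1, had 0 counts in liver and 61, 65.1 and 64.5 CPM in BAT, 42.8, 45.4 and 44 CPM in brain and 111, 93.2 and 68.8 CPM in IAT. B3galt2, a galactosyltransferase, and Tmem179 also had 0 counts in liver, while they averaged 38 and 26 CPM in BAT. Nat8l, which makes N-acetylaspartate in neurons and brown fat, was at 0.0987, 0.533 and 0.199 CPM in liver, 159, 178 and 175 CPM in BAT, 235, 282 and 170 CPM in brain and 226, 109 and 90 CPM in IAT. Asns, asparagine synthetase, was at 0.789, 0.444 and 0.498 CPM in liver and averaged 119 CPM in BAT, 91.4 CPM in brain and 80 CPM in IAT, a log2 difference of -7.10 (SE 0.19, edgeR adjusted p = 1.39e-10) to IAT.

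The glutamate carrier Slc1a3 averaged 0.627 CPM in liver, 144 in BAT, 479 in brain and 160 in IAT. The set of 12 also held Chn1, Sema7a, Arxes2, Syn2 and Tenm4, with liver means of 0.188, 0.099, 0.218, 0.192 and 0.372 CPM and at least 22.3 CPM in every other tissue. All 12 were liver-low under library totals as well. Among markers of the other tissues, 4 of 16 neuron genes (25%), 4 of 14 glia genes (28.6%), 1 of 16 adipocyte genes (6.25%) and 5 of 15 brown fat genes (33.3%) were liver-low, against 15.8% of all genes tested. The call asks liver to lie below all 3 other tissues. The neuron genes were Syp, Map2, Stmn2 and Thy1, with at most 3.45 CPM in liver. The glia genes included Slc1a3, Mbp and Pdgfra. The adipocyte gene was Tshr, the thyrotropin receptor, at 0 CPM in liver and at least 0.418 CPM in each other tissue. The brown fat genes were Cidea, Dio2, Prdm16, Ebf2 and Kcnk3. Some of these calls were lost when 1 library was left out, with the sign of the difference kept. Map2 was lost without liver replicate 1 (-0.43) or 3 (-0.70), and Pdgfra without BAT replicate 1 (-0.85), all as log2 differences to the nearest tissue. Thy1 was lost without BAT replicate 1 (-1.29) or any 1 liver library (-1.88 to -1.68; -1.76 with all libraries), and Cidea without brain replicate 3 (-3.11) or any 1 liver library (-3.80 to -3.32; -3.46 with all libraries). The glia list also held 1 liver-high gene, Aldh1l1, a folate enzyme of astrocytes and hepatocytes, at 3477, 2171 and 2111 CPM in liver and 39.8, 45.2 and 45 CPM in brain.

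Of 33 genes of the endoplasmic reticulum and secretory route, 31 were liver-high under TMM, 6 under library totals, and 1, Srp14 of the signal recognition particle, was liver-low under library totals. The list held 0.52% of TPM in liver (SD 0.0504), 0.294% in BAT, 0.427% in brain and 0.497% in IAT. P4hb, the disulphide isomerase, averaged 2134 CPM in liver, 129 in BAT, 83.7 in brain and 390 in IAT, and Hsp90b1 1418 CPM in liver, 279 in BAT, 271 in brain and 437 in IAT, and both were liver-high under either scaling. The chaperone Hspa5 averaged 1284 CPM in liver, 424 in BAT, 215 in brain and 439 in IAT and Calr 933 CPM in liver, 286 in BAT, 246 in brain and 412 in IAT, and both were liver-high under TMM only. Of 63 cytosolic ribosomal protein genes 2, Rpl10 and Rps2, were liver-high under TMM and none under library totals, where Rpl3, Rpl9 and Rps21 were liver-low. The Rpl10 call was lost without liver replicate 2 (log2 difference 0.37). Under TMM all 63 lay above brain, where 39.5% of all genes did. Of the 63, 21 lay above and 4 below BAT, where 29.7% and 36.0% of all genes did. Above IAT lay 2 of them and below it 21, where 32.0% and 37.7% of all genes did. The 21 above BAT and the 21 below IAT are near these shares. The 63 genes held 4.21% of TPM in liver (SD 0.473), 6.48% in BAT, 5.78% in brain and 10.6% in IAT. The order of liver and brain thus turned with the scale.

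Of 74 genes of oxidative phosphorylation 3, Atp5g1, Atp5g3 and Atp5j, were liver-high under TMM and 1 under library totals, where 6 were liver-low. The Atp5j call was lost without liver replicate 1 (log2 difference 0.26). Under TMM 71 of the 74 lay below BAT, where 36.0% of all genes did and 29.7% lay above it, and all 74 lay above brain, where 39.5% of all genes did. Ndufa4, a subunit of cytochrome oxidase, averaged 313 CPM in liver, 919 in BAT, 93.3 in brain and 165 in IAT. The TPM share of the list was 3.37% in liver, 18.6% in BAT, 4.46% in brain and 5.28% in IAT, so the order of liver and brain turned with the scale. Atp5g1, one of 3 genes for the same ATP synthase subunit, was liver-high under both scalings but not in tests of log2(TPM + 1), at 219 CPM in liver, 11.5 in BAT, 57.7 in brain and 40.7 in IAT. Of 25 cytoskeletal genes 9 were liver-low under TMM and 16 under library totals, where 15.8% and 43.2% of all genes were. Cald1, the actin-binding caldesmon, was the 1 liver-high gene, under TMM only, at 294 CPM in liver, 45.8 in BAT, 20.9 in brain and 126 in IAT. Tuba1a, a tubulin, averaged 8.38 CPM in liver, 51.6 in BAT, 730 in brain and 226 in IAT, and Tmsb4x, which binds actin monomers, 140 CPM in liver, 301 in BAT, 359 in brain and 854 in IAT. Of 27 extracellular matrix genes 3 (Col18a1, Fn1 and Bgn) were liver-high and 4 (Col4a2, Col6a1, Lama2 and Timp3) liver-low under TMM, and 1 and 13 under library totals. The liver-low counts are near the shares over all genes, 15.8% under TMM and 43.2% under library totals. The call of Fn1, fibronectin, was lost without any 1 IAT or liver library, at log2 differences of 1.06 to 1.4. Col18a1, whose C-terminal fragment is endostatin, was liver-high under both, at 1158 CPM in liver, 22.8 in BAT, 3.48 in brain and 110 in IAT.

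Of 28 antioxidant genes 15 were liver-high under TMM, 11 under library totals, and 1 and 3 were liver-low. The gene liver-low under TMM was Prxl2b, a relative of Prxl2a, at 9.38 CPM in liver and at least 12 CPM in each other tissue. That call was lost without any 1 brain or liver library, IAT replicate 1 or BAT replicate 2, at log2 differences of -0.36 to -0.26. Cat, catalase, averaged 3802 CPM in liver, 891 in BAT, 36.3 in brain and 641 in IAT, Gpx1 2220 CPM in liver, 328 in BAT, 37.1 in brain and 327 in IAT, Sod1 1052 CPM in liver, 431 in BAT, 77.3 in brain and 316 in IAT, and Prdx4, the peroxiredoxin of the endoplasmic reticulum, 136 CPM in liver, 22.1 in BAT, 8.81 in brain and 26.6 in IAT. These 4 were liver-high under both scalings. Gpx4, which reduces lipid peroxides, averaged 304 CPM in liver, 1405 in BAT, 121 in brain and 654 in IAT and lay below BAT and IAT. Prxl2a, the gene deleted in the KO arm of the study, was at 151, 132 and 120 CPM in WT liver, 470, 497 and 495 CPM in BAT, 80.1, 63.4 and 88.8 CPM in brain and 394, 266 and 254 CPM in IAT. Under TMM liver lay 0.80 (SE 0.18, edgeR adjusted p = 0.00132) above brain on the log2 scale, but in tests of log2(TPM + 1) it lay below brain, at -1.11. It was below BAT (-1.85) and IAT (-1.17). Of 17 clock genes 4, among them Cry1, Ciart and Bhlhe40, were liver-high under TMM, where 17.3% of all genes were. Under library totals none was liver-high, where 7.82% of all genes were, and 8 were liver-low, near the 43.2% of all genes. The labels used here give no hour of collection.

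The 3 livers were alike for most genes. Over 3488 genes with a mean of at least 20 TPM in liver, the median coefficient of variation was 7.4%, and 25 genes exceeded 50%. The most variable was Pdk4, which slows glucose oxidation in fasting, at 5.30, 4.28 and 51.43 TPM in replicates 1, 2 and 3. Egr1, an immediate early factor, was at 7.47, 6.25 and 66.24 TPM, and Ppp1r3g, a glycogen-targeting phosphatase subunit, at 16.84, 5.52 and 58.1 TPM, so all 3 genes were highest in replicate 3. The P450 genes Cyp3a41a and Cyp3a16 were highest in replicate 1. Cyp3a41a was at 1952, 333 and 421 TPM and Cyp3a16 at 56.07, 16.13 and 7.05 TPM. The globins Hbb-bs, Hbb-bt and Hba-a2 were highest in replicate 1 as well, with Hbb-bs at 403, 108 and 79.1 TPM. Cyp3a41a and Cyp3a16 were liver-high nonetheless, while Pdk4, at 21, 16.1 and 200 CPM in liver and 1346, 1093 and 1254 CPM in BAT, Egr1 and the globins were not called. Without replicate 3, Egr1 was liver-low, at a log2 difference of -2.47 to the nearest tissue.

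**Figure D5:**
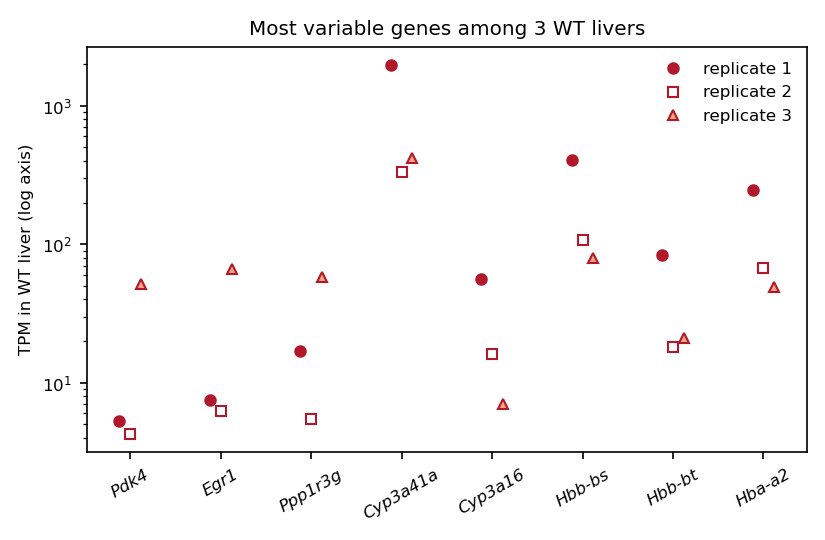
TPM in the 3 WT liver libraries (log axis) for the 8 genes with the largest coefficient of variation among genes with a mean of at least 20 TPM in liver, with 1 symbol per replicate. Replicate 3 is highest for Pdk4, Egr1 and Ppp1r3g, and replicate 1 for Cyp3a41a, Cyp3a16 and the globins.

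The same rule was applied to the 12 KO libraries, which had no part in the WT calls. Prxl2a was at 1.72, 0.99 and 2.24 TPM in KO liver and at 91.77, 85.72 and 75.32 TPM in WT liver, and its highest value in a KO library of any tissue was 24.39 TPM, against a lowest of 75.32 TPM in WT. There 2309 of 15685 tested genes were liver-high and 2397 were liver-low. Of the 2742 genes that were liver-high in WT, 2125 were also liver-high in KO, which is 77.5% of the WT list and 92.0% of the KO list. Of the 2497 liver-low genes, 1910 were also liver-low in KO, 76.5% of the WT list and 79.7% of the KO list. No gene was liver-high in one genotype and liver-low in the other.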

How the data were processed

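RNA was sequenced from 4 tissues of WT and Prxl2a KO mice, 3 libraries per group, and the 12 WT libraries were compared. Tissue RNA was made into libraries with a SMARTer mRNA-seq kit, per the labels' protocols. The submitters' processing notes name the build GRCm38.p6, RSEM 1.3.1, Bowtie2 2.3.4.3 and the test package DESeq2 1.4.5. Expected counts per gene, which RSEM estimates by dividing reads among genes that share them, and TPM were deposited by the authors for 19015 genes, per the file headers. Of all expected counts, zeros included, 8.59% were not whole, and all were rounded before testing. The other 48 columns of per-sample values were not used. Gene symbols matched RefSeq for 18958 genes (99.7%), which gave coordinates and promoters.

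Genes kept by filterByExpr were tested with edgeR 4.0.16 (R 4.3.3, limma 3.58.1), TMM factors and the quasi-likelihood test, liver against each other tissue, with Benjamini-Hochberg adjustment over all 15810 genes tested. Standard errors were derived from the log2 fold change and its F statistic. A fold against a tissue at 0 counts used a floor of 3 counts over its 3 libraries and is a lower bound that covers counting error only. Single values per library were compared with exact permutation tests of liver against the 9 other libraries, taken as 1 group. The tests were checked on simulated data. There all libraries shared the same profile except for a set of genes changed in liver, so the choice of scaling was not checked. DESeq2 1.42.0 was an alternative.

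Libraries of a tissue correlated at 0.966 to 0.991 in log2 CPM and none agreed within sampling noise. The labels do not tie equal replicate numbers to 1 mouse or day, and same-numbered libraries did not deviate together (r of -0.329 to 0.263 over 18 pairs, 2 of them over 0.1). The p-values measure the spread between these libraries.

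Named genes were the 15 highest in liver TPM, up to 12 called genes in each direction with the largest gap to the nearest tissue (at least 50 CPM in liver, or 20 CPM in each other tissue), up to 8 called and 4 uncalled members per gene list by TPM, both genes of 25 enzyme pairs, the 8 most variable genes of liver, and Prxl2a. The lists and pairs were chosen with earlier results of these data known. Some members are not reported here.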

Additional observations from a re-analysis of the deposited data

How the results depend on the processing

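The counts of liver-high and liver-low genes, 2742 and 2497, changed by less than 1.5 times under RLE factors, DESeq2, limma-voom, both other count filters, a fit of all 24 libraries and without the 3 libraries rich in muscle transcripts (2723 and 2105). Leaving out 1 library gave 2620 to 2920 and 2269 to 2538. With the replicate number as a block, a pairing the labels do not state, they were 2707 and 2460, and of the named genes' calls 1, that of Fn1 (log2 difference 1.19), was lost.

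Under library totals, a change of scaling alone, they were 1237 and 6835. With limma on log2(TPM + 1), where the unit, the test and the filter all differ, they were 1041 and 6984, with 0.1 TPM added instead 1027 and 7392, and with no filter 1158 and 7043. A required log2 difference of at least 1 left 1577 and 1616. Against the mean of the other tissues 5426 genes were higher and 6234 lower in liver, and in the same 4 settings 2353 and 11003, 1777 and 11682, 1840 and 11560, and 1961 and 13121. Leaving out 1 library gave 5137 to 5803 and 5744 to 6220. As shares of expected counts, the top 1, 10, 50 and 100 genes held 11.8%, 21.4%, 36.8% and 44.9% in liver, against 9.26%, 24.3%, 43.0% and 51.7% of TPM. Without 1 liver library the TPM shares of the top 1, 10 and 50 were 8.64% to 9.71%, 23.7% to 24.8% and 42.5% to 43.5%.

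The lists that follow are not complete. Log2 differences to the nearest tissue that were positive under TMM and negative under another setting included, for library totals, Atp5g3 -0.43, Atp5j -0.45, Bgn -0.21, Ciart -0.10, Cry1 -0.17, Ghr -0.52, Pck1 -0.15, Pgam1 -1.01, Rpl10 -0.62, Rps2 -0.14 and Srp14 -1.16. On log2(TPM + 1), with or without the filter, they included Atp5g3 -0.51, Atp5j -0.04, Bgn -0.34, Bhlhe40 -0.60, Ciart -0.85, Cry1 -0.11, Ghr -0.51, Lpl -1.17, Pck1 -0.11, Pecam1 -0.72, Pgam1 -1.12, Prxl2a -1.11, Rpl10 -0.70, Rps2 -0.09 and Srp14 -1.87. With 0.1 TPM added, those that differ were Atp5j -0.05, Bgn -0.35, Ciart -0.87, Cry1 -0.12, Lpl -1.29, Pecam1 -0.80 and Srp14 -1.89, and the others were Atp5g3 -0.51, Bhlhe40 -0.60, Ghr -0.51, Pck1 -0.11, Pgam1 -1.12, Prxl2a -1.11, Rpl10 -0.70 and Rps2 -0.09. Under library totals only the scaling differed. In the TPM settings the unit, the test and the filter all differed, and which of them mattered was not tested. Depth limits genes near 0 counts, whose fold is only a lower bound, and each tissue rests on 3 libraries.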
